A study of Mus musculus with 6 samples.

Results

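The MHC class I genes and the genes that load class I molecules with peptide were followed in RAW264.7 cells, a mouse macrophage line derived from a BALB/c tumour. The members are 10 gene symbols, chosen by name and all found among the 40773 symbols of the count table. They are the heavy chain genes H2-K1, H2-D1, H2-Q7 and H2-T23, the light chain gene B2m, the loading genes Tap1, Tap2, Tapbp and Erap1, and the regulator Nlrc5. Cells received lipopolysaccharide (LPS), an outer membrane molecule of bacteria that macrophages sense through Toll-like receptor 4, together with 3A2, an antibody that neutralizes the membrane metalloproteinase MMP14, or LPS alone. Both groups had LPS at 100 ng/mL for 24 h, and 3A2 was given at 50 µg/mL. The labels give the genotype as plain and name 3 biological replicates per group, all of the same line, so the replicates are cultures and not animals. Cultures with no LPS or with a control antibody were not analysed here. The comparison therefore sets LPS with added 3A2 against LPS alone, and does not show what LPS changed. Neutralizing MMP14 and adding an antibody of any kind cannot be told apart in this design.

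Class I molecules display peptides from inside the cell to CD8 T cells and natural killer cells. A heavy chain pairs with the light chain beta-2 microglobulin in the endoplasmic reticulum, where the TAP transporter delivers peptides, tapasin holds the empty molecule beside TAP, and the aminopeptidase ERAP1 trims peptides to length. In macrophages the pathway is known to be raised by interferons, which Toll-like receptor 4 signalling can induce. NLRC5 is the transactivator of class I genes. It is brought to a promoter module of X and Y boxes by the RFX, CREB/ATF and NF-Y factors.

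The promoters of the heavy chain genes and of B2m are shown to compare which of 3 motifs each one holds, of the kinds through which NLRC5, interferon and NF-κB are known to act on class I genes. Sequences are the RefSeq windows of GRCm38.p6, from 250 bases before to 50 bases after the transcript start, on the strand of the gene (for H2-K1 the first listed of 2), and come from the C57BL/6J genome and not from these cells. Capitals mark matches to 3 motifs, searched on both strands: an X2-Y pair, which is TGACG and ATTGG with 19 to 21 bases between them, an interferon response element core, in which 2 bases lie between TTTC and either TTC or TTTC, and the NF-κB consensus.
H2-K1, chr17:34000298-34000597, minus strand: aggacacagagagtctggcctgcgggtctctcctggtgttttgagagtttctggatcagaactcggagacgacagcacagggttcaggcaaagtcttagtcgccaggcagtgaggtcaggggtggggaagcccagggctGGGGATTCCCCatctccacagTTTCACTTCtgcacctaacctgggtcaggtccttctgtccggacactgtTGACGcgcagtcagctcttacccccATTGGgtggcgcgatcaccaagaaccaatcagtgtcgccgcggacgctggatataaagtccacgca
H2-D1, chr17:35262844-35263143, plus strand: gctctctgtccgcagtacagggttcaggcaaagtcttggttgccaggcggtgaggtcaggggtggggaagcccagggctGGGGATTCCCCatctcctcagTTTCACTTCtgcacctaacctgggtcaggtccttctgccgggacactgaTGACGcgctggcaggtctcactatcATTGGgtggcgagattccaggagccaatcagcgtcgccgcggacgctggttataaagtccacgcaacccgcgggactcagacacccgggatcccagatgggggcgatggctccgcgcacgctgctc
H2-Q7, chr17:35438905-35439204, plus strand: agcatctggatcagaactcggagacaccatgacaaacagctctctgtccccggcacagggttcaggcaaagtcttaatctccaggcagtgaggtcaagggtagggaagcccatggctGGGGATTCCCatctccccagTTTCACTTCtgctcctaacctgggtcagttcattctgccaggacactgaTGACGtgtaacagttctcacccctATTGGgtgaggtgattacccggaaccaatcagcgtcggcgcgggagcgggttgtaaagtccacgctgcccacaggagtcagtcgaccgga
H2-T23, chr17:36032652-36032951, minus strand: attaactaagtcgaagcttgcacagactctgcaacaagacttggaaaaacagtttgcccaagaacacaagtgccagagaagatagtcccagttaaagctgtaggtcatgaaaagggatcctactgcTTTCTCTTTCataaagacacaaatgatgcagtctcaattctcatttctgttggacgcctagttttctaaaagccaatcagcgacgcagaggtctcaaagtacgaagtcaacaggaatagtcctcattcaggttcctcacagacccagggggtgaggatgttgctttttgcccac
B2m, chr2:122147437-122147736, plus strand: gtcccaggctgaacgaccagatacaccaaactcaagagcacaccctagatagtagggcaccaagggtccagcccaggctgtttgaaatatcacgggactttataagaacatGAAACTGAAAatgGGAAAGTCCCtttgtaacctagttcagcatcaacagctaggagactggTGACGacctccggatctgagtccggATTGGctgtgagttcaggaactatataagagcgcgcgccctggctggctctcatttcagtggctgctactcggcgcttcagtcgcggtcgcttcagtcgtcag

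H2-K1, H2-D1, H2-Q7 and B2m each held all 3 motifs, with no overlap between different motifs. In the heavy chain promoters the NF-κB match came first, then the interferon core, then the X2-Y pair, while in B2m the interferon core lay upstream of the NF-κB match. The gap inside the pair was 20 bases in H2-K1, H2-D1 and B2m and 19 bases in H2-Q7. H2-T23 held the interferon core alone, and so did Erap1, where the match spans the transcript start. The windows of Tap1 and Tapbp held no full match to any of the 3 motifs, and the table has no window for Tap2 and Nlrc5. The Tap1 window shares 275 of its 300 bases with that of Psmb9, an immunoproteasome subunit gene read in the other direction. Of all 32851 windows, 0.201% held the X2-Y pair, 10.4% the interferon core and 8.46% the NF-κB consensus. The 3 motifs stood together in 5 of 27025 genes, which were the 4 named here and H2-M3, a class I gene whose product presents formylated peptides. The gap of the pair was set after these promoters had been read, so this count describes the motif and supports nothing.

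**Figure D1:**
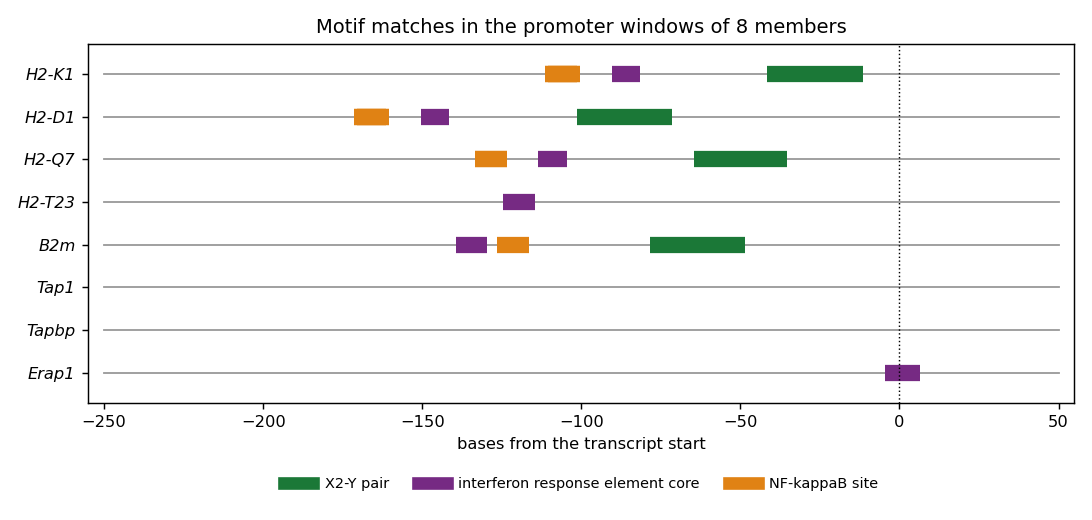
Motif matches in the promoter windows of the 8 members with a window, in bases from the transcript start (dotted line). Green marks the X2-Y pair, purple the interferon response element core and orange the NF-κB consensus, and the same order of 3 matches recurs in H2-K1, H2-D1 and H2-Q7.

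The 6 libraries held 6060732 to 7432553 counts each. Macrophage markers (Adgre1, Cd68, Csf1r, Lyz2, Itgam, Mertk, Fcgr1) summed to 4910 to 5261 CPM (counts scaled to a common library total, with TMM factors) with LPS plus 3A2 and 5724 to 5812 CPM with LPS. Lyz2, the lysozyme gene of myeloid cells, made up most of these sums, with means of 3780 CPM with LPS plus 3A2 and 4337 CPM with LPS. It stood at 0.871-fold (unadjusted p = 0.00155, adjusted p = 0.719 by edgeR's quasi-likelihood test with Benjamini-Hochberg adjustment), and Csf1r, the receptor for a macrophage growth factor, at 0.878-fold (unadjusted p = 0.00728, adjusted p = 0.719 by edgeR). Of the 6 macrophage markers tested 5 lay below 0 and 1 above, and 0 passed the adjusted threshold. Lyz2, Csf1r and Itgam, 3 of the 6, were lower without overlap between groups, while Cd68 stood at 0.9875-fold and Adgre1 at 1.03-fold. Over all genes tested, 6.46% were lower without overlap and 5.84% higher. At an unadjusted p of 0.05 by edgeR, 3.09% of all genes were lower and 3.43% higher. The part of the macrophage markers in the results below was not tested. Markers of T and natural killer cells summed to at most 0.162 CPM with LPS plus 3A2 and 0 with LPS. Fibroblast markers reached 0.334 CPM with LPS plus 3A2 and 0.439 CPM with LPS, and dendritic cell markers 2.62 CPM with LPS plus 3A2 and 2.68 CPM with LPS. Cd79a, a part of the B cell receptor, had 0, 0 and 1 counts with LPS plus 3A2 and 2, 5 and 3 counts with LPS, and its part in the results was not tested. All 4 epithelial markers were at 0, and so were Cd3e and Cd8a. Mmp14, which encodes the target of the antibody, was barely detected, at 2, 6 and 3 counts with LPS plus 3A2 and 1, 5 and 0 counts with LPS. LPS plus 3A2 replicate 3 stood apart, with mitochondrial mRNAs at 30930 CPM against 21910 to 25670 CPM in the other libraries and ribosomal protein mRNAs at 39170 CPM against 43390 to 44430 CPM.

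MHC class I genes stood at nearly the same levels in macrophages given LPS with 3A2 and macrophages given LPS alone. Of the 10 members 9 passed the filter on low counts and were tested, and 0 passed an adjusted p of 0.05 by edgeR, against 0% of all 11498 genes tested. DESeq2 and limma-voom also called 0 members and 0 genes in all, and the smallest adjusted p of any gene by edgeR was 0.295. Fold changes of LPS plus 3A2 over LPS ran from 0.911 for H2-T23 to 1.09 for B2m. The 95% interval lay within 1.25-fold either way for 8 of the 9 members and for 42.8% of all genes tested, and within 1.5-fold for all 9 members and 79.6% of genes. Erap1 was the exception to the narrower range, with an upper bound of 1.26. Standard errors of the log2 fold change were 0.0564 (B2m) to 0.103 (Erap1) for the members, against a median of 0.119 over all genes. The shares of all genes thus include many genes measured less precisely than the members. At an unadjusted p of 0.05 the only member was B2m, higher with 3A2, where 6.51% of all genes passed in either direction, 3.43% higher and 3.09% lower. B2m passed that level in 8 of the 13 alternatives, not with the replicate number as a block (unadjusted p = 0.0723 by edgeR) nor without LPS plus 3A2 replicate 1 or any 1 of the LPS libraries. Without LPS plus 3A2 replicate 2, 3 members passed it, which were B2m, H2-T23 and Erap1. Over all genes tested, 1752 of 11667 passed it in that setting, against 749 of 11498 with all 6 libraries. In RNA from whole cultures, fewer cells expressing a gene and less of its RNA per cell cannot be told apart.

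**Figure D2:**
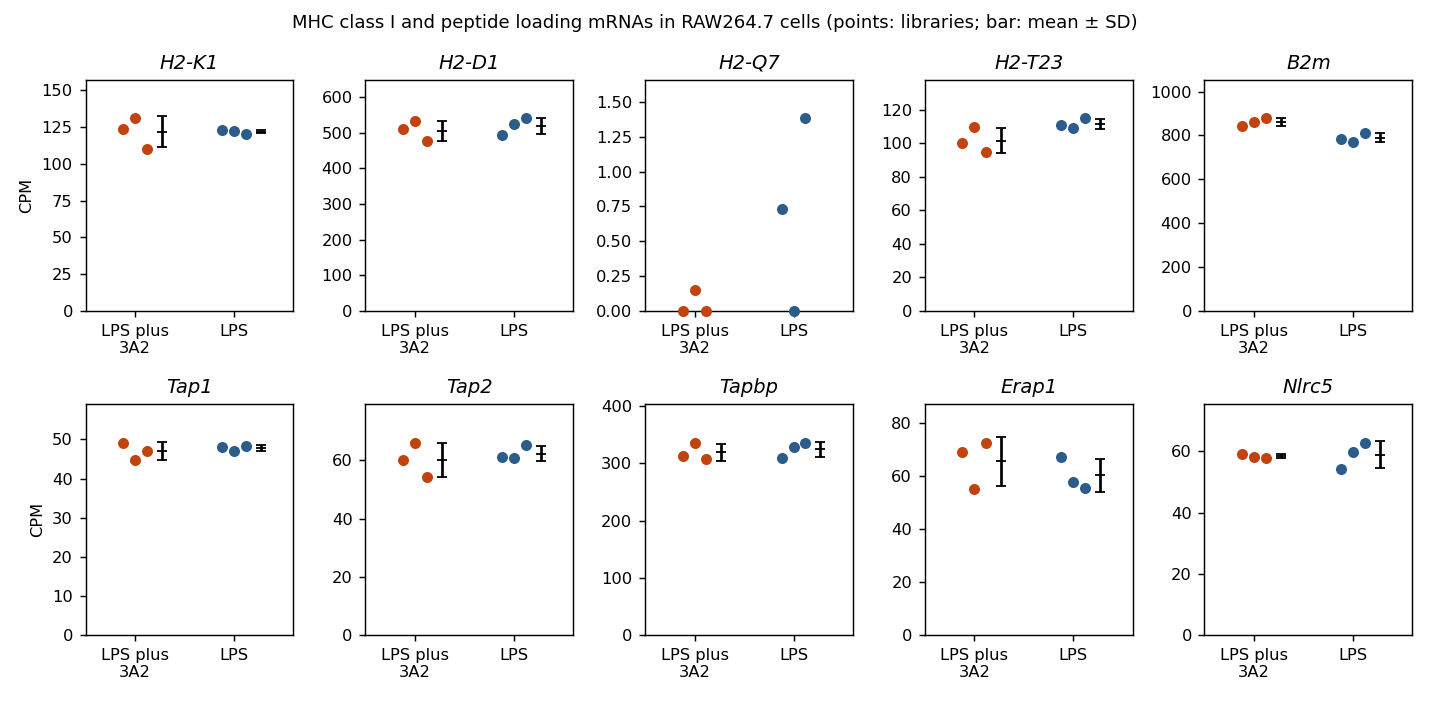
Level of each member in CPM in every library, LPS plus 3A2 in red and LPS in blue, with the mean ± SD of 3 libraries beside the points (left out for H2-Q7, which lay near 0). Points overlap between groups in every panel but that of B2m, where the 844 to 878 CPM with LPS plus 3A2 lie above the 772 to 811 CPM with LPS.

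H2-D1 and H2-K1 encode the classical heavy chains, which present peptides to CD8 T cells, and neither differed beyond the spread of its libraries. H2-D1 measured 509, 531 and 476 CPM with LPS plus 3A2, against 494, 523 and 539.8 CPM with LPS. The lowest library had 3A2 and the highest had LPS alone, and the ranges overlapped. The fold change was 0.974 (95% interval 0.89 to 1.07, adjusted p = 0.927 by edgeR). H2-K1 measured 124, 131 and 110.2 CPM with LPS plus 3A2, against 123, 122 and 120.4 CPM with LPS. The LPS libraries lay close together and inside the range of the 3A2 libraries, and the fold change was 0.999 (0.896 to 1.11, adjusted p = 0.996 by edgeR). H2-D1 made up 69.5%, 68.8% and 69.9% of the summed counts of the 4 heavy chain members with LPS plus 3A2, against 67.8%, 69.3% and 69.5% with LPS.

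H2-T23 encodes Qa-1, a nonclassical heavy chain that is read by the inhibitory receptor CD94/NKG2A of natural killer cells, and it had the lowest fold change of the 9 tested members. It measured 100.1, 109.7 and 94.7 CPM with LPS plus 3A2, against 111, 109 and 115 CPM with LPS. The lower 2 of the 3A2 libraries lay below every LPS library and replicate 2 lay among them. The difference was 0.911-fold (95% interval 0.8165 to 1.02, unadjusted p = 0.0899, adjusted p = 0.77 by edgeR). Without LPS plus 3A2 replicate 2 the log2 fold change was -0.195 (adjusted p = 0.235 by edgeR), and without LPS plus 3A2 replicate 3 it was -0.0864 (adjusted p = 0.938 by edgeR). Over the 13 alternatives the adjusted p ran from 0.235 to 0.999.

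H2-Q7 encodes the Qa-2 heavy chain and was barely detected. It had 0, 1 and 0 counts with LPS plus 3A2 and 5, 0 and 9 counts with LPS. The 2 libraries with more than 1 count both had LPS alone, but the third LPS library had none, so the groups overlapped. Summed over libraries this was 1 count, or 0.0536 CPM, with LPS plus 3A2 and 14 counts, or 0.673 CPM, with LPS. The ratio was 0.0797, with an exact counting interval of 0.00189 to 0.524, which covers counting error only. By an exact permutation test over the 6 libraries, two-sided, p was 0.4, and this design can go no lower than 0.1. A library with 0 counts allows up to 0.401 to 0.501 CPM, from 3 counts. In edgeR without a filter on low counts its adjusted p was 0.504 (unadjusted p = 0.00741).

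Reads of the heavy chain genes may be shared with relatives, which leaves values of these genes uncertain. Of the stretches of 75 bases in GENCODE M21 transcripts, 17% of those of H2-Q7 also occur in transcripts of another gene, most often of H2-Q10. The share was 5.91% for H2-T23, 5.4% for H2-D1 and 3.1% for H2-K1. It was 1.1% for Tapbp and 0 for B2m, Tap1, Tap2, Erap1 and Nlrc5. These shares describe reference transcripts and set no bound on the uncertainty in these cells. H2-L, another heavy chain gene, had no row in the count table, so where any reads of it were counted is unknown. Class I alleles of BALB/c also differ from those of the C57BL/6J reference, and how reads of such alleles were assigned was not stated in the labels.

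The light chain gene B2m was higher in every culture with 3A2 than in any with LPS alone, by a margin that did not pass the correction over all genes. It measured 844, 862 and 878 CPM with LPS plus 3A2, against 784, 772 and 811 CPM with LPS. The groups did not overlap, which was the case in this direction for 5.84% of all genes tested and for this 1 member, and in the other direction for 6.46% of all genes and 0 members. The means were 861 ± 16.85 CPM with LPS plus 3A2 and 789 ± 20.1 CPM with LPS (SD, n = 3 each), or 1.09-fold (95% interval 1.01 to 1.18). Its p by edgeR was 0.0362 unadjusted and 0.748 adjusted over all genes. The log2 fold change stayed between 0.111 and 0.146 over the 13 alternatives, and the adjusted p from 0.313 to 0.999. Without LPS plus 3A2 replicate 3, the library that stood apart, it was 0.113 (adjusted p = 0.838 by edgeR).

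Set against the heavy chains in the same library, B2m was higher with 3A2 in each culture. The ratio of B2m to the summed counts of the 4 heavy chain members was 1.15, 1.12 and 1.29 with LPS plus 3A2, against 1.08, 1.02 and 1.045 with LPS. The groups did not overlap, and replicate 3 of LPS plus 3A2, the library with the fewest ribosomal protein and the most mitochondrial mRNAs, had the highest ratio. The sum of the heavy chain members itself was 733, 772 and 681 CPM with LPS plus 3A2, against 728, 754 and 776 CPM with LPS, with overlap and a ratio of means of 0.968. These ratios were formed from members with known values and were not tested.

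Tap1 and Tap2 encode the paired subunits of the transporter that moves peptides from the cytosol into the endoplasmic reticulum, and both stood close to 1-fold. Tap1 measured 49.2, 44.6 and 47.1 CPM with LPS plus 3A2, against 48.05, 47 and 48.4 CPM with LPS. The 3A2 libraries lay on both sides of the narrow LPS range, at 0.983-fold (95% interval 0.864 to 1.12, adjusted p = 0.967 by edgeR). Tap2 measured 60.2, 66 and 54.4 CPM with LPS plus 3A2, against 60.9, 60.9 and 65.1 CPM with LPS. Its highest and its lowest library both had 3A2, and the fold change was 0.968 (0.852 to 1.1, adjusted p = 0.936 by edgeR). The ratio of Tap1 to Tap2 was 0.817, 0.676 and 0.865 with LPS plus 3A2, against 0.788, 0.771 and 0.743 with LPS, so both extremes fell in cultures with 3A2. Psmb9, whose promoter window overlaps that of Tap1, stood at 0.9785-fold (0.813 to 1.18, adjusted p = 0.969 by edgeR).

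Tapbp encodes tapasin, the bridge between TAP and the empty class I molecule. It measured 312, 336 and 308 CPM with LPS plus 3A2, against 309, 329 and 334 CPM with LPS. The ranges were nearly the same in both groups, at 0.9835-fold (95% interval 0.8975 to 1.08, adjusted p = 0.952 by edgeR). Erap1, the peptide trimming aminopeptidase, varied between libraries in both groups. It measured 69, 55 and 72.5 CPM with LPS plus 3A2, against 67.2, 57.7 and 55.4 CPM with LPS. Each group held high and low libraries and the fold change was 1.09 (0.937 to 1.26, adjusted p = 0.84 by edgeR). Its log2 fold change ran from 0.0418 without LPS plus 3A2 replicate 3 to 0.234 without LPS plus 3A2 replicate 2, which is over 1.5 times in either direction from the 0.121 with all libraries.

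Nlrc5, the transactivator, showed no difference beyond the spread of its libraries. It measured 59.1, 58 and 57.9 CPM with LPS plus 3A2, against 54.05, 59.8 and 62.8 CPM with LPS. The 3A2 libraries lay within the LPS range, at 0.991-fold (95% interval 0.875 to 1.12, adjusted p = 0.982 by edgeR).

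**Figure D3:**
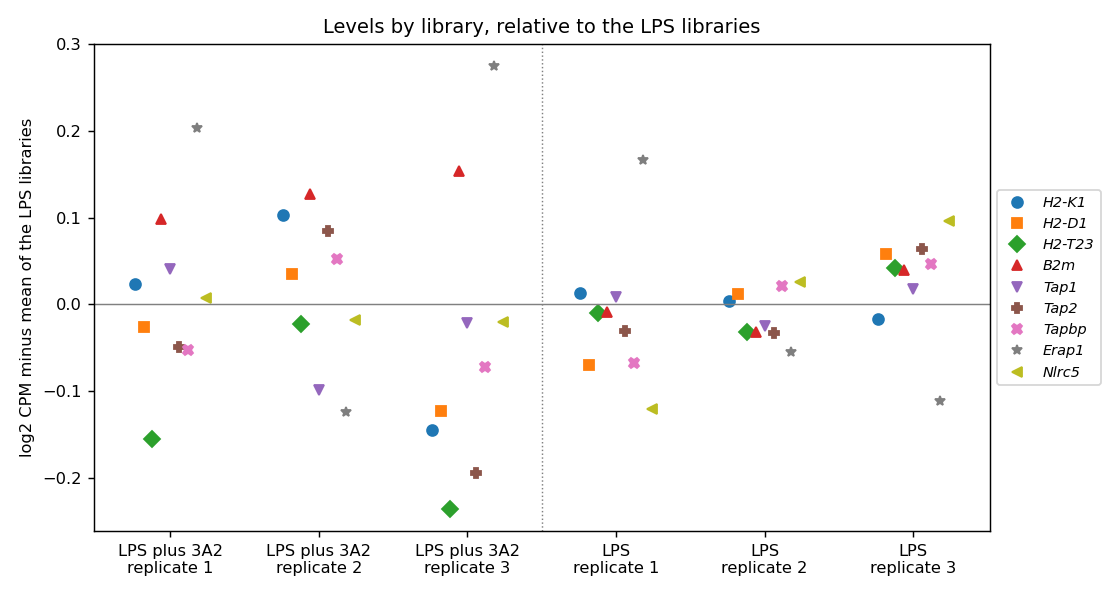
Difference of log2 CPM of each tested member from its mean over the 3 LPS libraries, by library, with LPS plus 3A2 left of the dotted line. B2m (red triangles) lies at 0.0978 to 0.154 in the 3A2 libraries, and 5 of the 9 members have their lowest value in LPS plus 3A2 replicate 3.

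The tested members lay on both sides of 0. The median log2 fold change of the 9 tested members was -0.024, beside 0.00174 over all genes tested, with 2 members above 0 and 7 below, where 50.4% of all genes lay above 0 and 49.6% below. LPS plus 3A2 replicate 3 had the lowest value of 5 members (H2-K1, H2-D1, H2-T23, Tap2 and Tapbp), and the highest of B2m and Erap1. Without that library the median was 0.00451, and H2-K1, H2-D1, Tap2 and Tapbp turned from below to above 0. LPS plus 3A2 replicate 2, in contrast, was highest for H2-K1, Tap2 and Tapbp and lowest for Tap1 and Erap1. Within the 3A2 libraries H2-K1, H2-D1, H2-T23, Tap2 and Tapbp all fell from replicate 2 to replicate 1 to replicate 3. The other tested members did not follow this order.

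**Figure D4:**
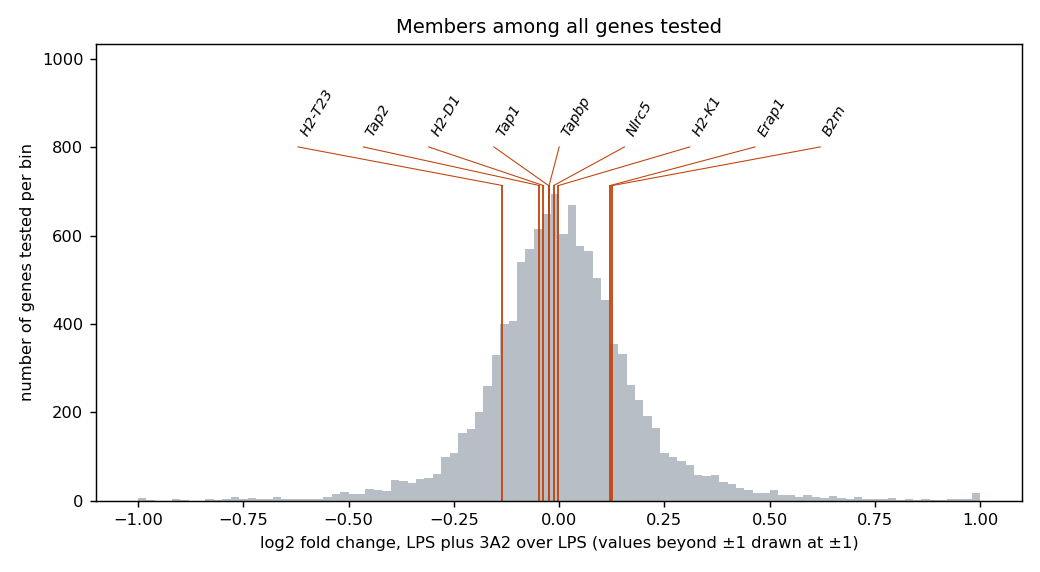
Histogram of the log2 fold changes of all 11498 genes tested, LPS plus 3A2 over LPS, with a red line at each of the 9 tested members. H2-T23 lies lowest at -0.135 and B2m highest at 0.126, both inside the bulk of the distribution.

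Per length, B2m was the most abundant member and Nlrc5 the least abundant of those tested. Levels per kilobase are CPM divided by the exon length of the gene in GENCODE M21, which may not be the annotation behind the counts. B2m averaged 1002 ± 19.6 CPM per kilobase with LPS plus 3A2 and 918 ± 23.3 with LPS (SD, n = 3 each). H2-D1 followed at 196 ± 10.8 with LPS plus 3A2 and 201 ± 9.01 with LPS, then Tapbp at 87.8 ± 4.11 with LPS plus 3A2 and 89.3 ± 3.66 with LPS. H2-K1 at a median of 41.7 CPM per kilobase over the 6 libraries and H2-T23 at 37.9 overlapped in range. Tap2 stood at a median of 16.1, Tap1 at 8.69 and Erap1 at 8.58, where the last pair overlapped, and Nlrc5 at 6.89. H2-Q7 lay at 0 to 0.324 CPM per kilobase. All neighbours in this order other than these 2 pairs were separate in all 6 libraries.

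Other heavy chain genes of the H2 complex were mostly low, and 0 of 9 tested passed by edgeR, of 16 in the table. They had 3 above 0 and 6 below on the log2 scale, with a median log2 fold change of -0.105. At an unadjusted p of 0.05 there was 1 higher and 0 lower, where 3.43% of all genes tested were higher and 3.09% lower. H2-T22, whose product is a ligand of some gamma-delta T cell receptors and which had the highest counts, measured 76.9, 84.8 and 74.3 CPM with LPS plus 3A2, against 86.7, 85.5 and 80 CPM with LPS, or 0.936-fold (adjusted p = 0.84 by edgeR). H2-T24 stood at 0.906-fold (95% interval 0.806 to 1.02) and was lower without overlap between groups, as were 6.46% of all genes tested. H2-Q10, known as a secreted class I molecule of the liver, measured 2.76, 2 and 2.5 CPM with LPS plus 3A2, against 1.025, 1.34 and 1.38 CPM with LPS. These few counts gave a 1.92-fold difference (1.11 to 3.32, unadjusted p = 0.022, adjusted p = 0.733 by edgeR). H2-Q10 was higher without overlap between groups, as were 5.84% of all genes tested. It is also the gene with which H2-Q7 shares most sequence, and the part of shared reads was not tested. H2-Q2 stood at 0.627-fold (0.375 to 1.05). With all 16 heavy chain genes added to the 4 members, B2m over the heavy chain sum was 0.828, 0.805 and 0.915 with LPS plus 3A2, against 0.759, 0.727 and 0.753 with LPS.

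Genes that fold, trim and export class I molecules or their peptides gave 0 of 14 past the threshold by edgeR, with 9 above 0, 5 below and a median log2 fold change of 0.026. At an unadjusted p of 0.05 there were 0 as well, where 6.51% of all genes tested passed. Canx, the lectin chaperone calnexin that receives new heavy chains and the list's most abundant member, stood at 1.01-fold (95% interval 0.93 to 1.11). Bcap31, an endoplasmic reticulum protein that takes part in the export of class I, measured 76.3, 77.7 and 83 CPM with LPS plus 3A2, against 62.8, 76.1 and 72.6 CPM with LPS. Every 3A2 library lay above every LPS library, as for 5.84% of all genes tested, at 1.12-fold (0.989 to 1.27, unadjusted p = 0.0713, adjusted p = 0.757 by edgeR). Its log2 fold change of 0.162 was 0.0865 without LPS replicate 1. Tpp2, a cytosolic peptidase, stood at 1.08-fold (0.965 to 1.22), and its log2 fold change of 0.117 was 0.0123 without LPS plus 3A2 replicate 3 and 0.187 without LPS plus 3A2 replicate 2. Tapbpl, the tapasin-related peptide editor, measured 1.62, 3.08 and 2.67 CPM with LPS plus 3A2, against 2.78, 3.88 and 3.99 CPM with LPS, or 0.695-fold (0.439 to 1.1).

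Regulators of class I genes gave 0 of 16 past the threshold by edgeR, with 7 above 0, 9 below and a median log2 fold change of -0.0029. At an unadjusted p of 0.05 there were 0, where 6.51% of all genes tested passed. Without overlap between groups, 1 was higher (Ezh2) and 1 lower, where 5.84% of all genes tested were higher and 6.46% lower. Rfx5, a subunit of the RFX complex on the X box, stood at 0.894-fold (95% interval 0.7535 to 1.06). Its log2 fold change of -0.161 was -0.0253 without LPS replicate 1, -0.243 without LPS replicate 2 and -0.107 without LPS plus 3A2 replicate 3. Nfyb, a subunit of the Y box factor NF-Y, stood at 1.14-fold (0.929 to 1.41), with every 3A2 library but replicate 1 above the LPS libraries. Ezh2, the histone methyltransferase of a Polycomb complex that can silence class I genes, measured 57.8, 51.1 and 53.8 CPM with LPS plus 3A2, against 46.4, 51 and 45.9 CPM with LPS, or 1.13-fold (0.994 to 1.29, adjusted p = 0.757 by edgeR). Kpnb1, an importin and the list's most abundant member, stood at 0.991-fold (0.908 to 1.08).

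Proteasome genes, which supply the peptides, gave 0 of 12 past the threshold by edgeR, with 7 above 0, 5 below and a median log2 fold change of 0.043. At an unadjusted p of 0.05 there was 1 higher, Psmb7, and 0 lower, where 3.43% of all genes tested were higher and 3.09% lower. Psmb7 and Psme3 were higher without overlap between groups and 0 were lower, where 5.84% of all genes were higher and 6.46% lower. Psmb7, a catalytic subunit of the standard proteasome, measured 126, 127 and 125.5 CPM with LPS plus 3A2, against 111, 115 and 116.5 CPM with LPS, or 1.11-fold (95% interval 1.003 to 1.23, unadjusted p = 0.04375, adjusted p = 0.748 by edgeR). Psme3, a proteasome activator, stood at 1.1-fold (0.991 to 1.215), Psma3 at 1.1-fold (0.983 to 1.24; log2 fold change 0.143, and 0.0473 without LPS plus 3A2 replicate 3) and Psmd4, a ubiquitin receptor, at 0.9835-fold (0.876 to 1.1). The immunoproteasome gene Psmb8, which lies beside Tap1 in the MHC, stood at 1.045-fold (0.942 to 1.16).

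**Figure D5:**
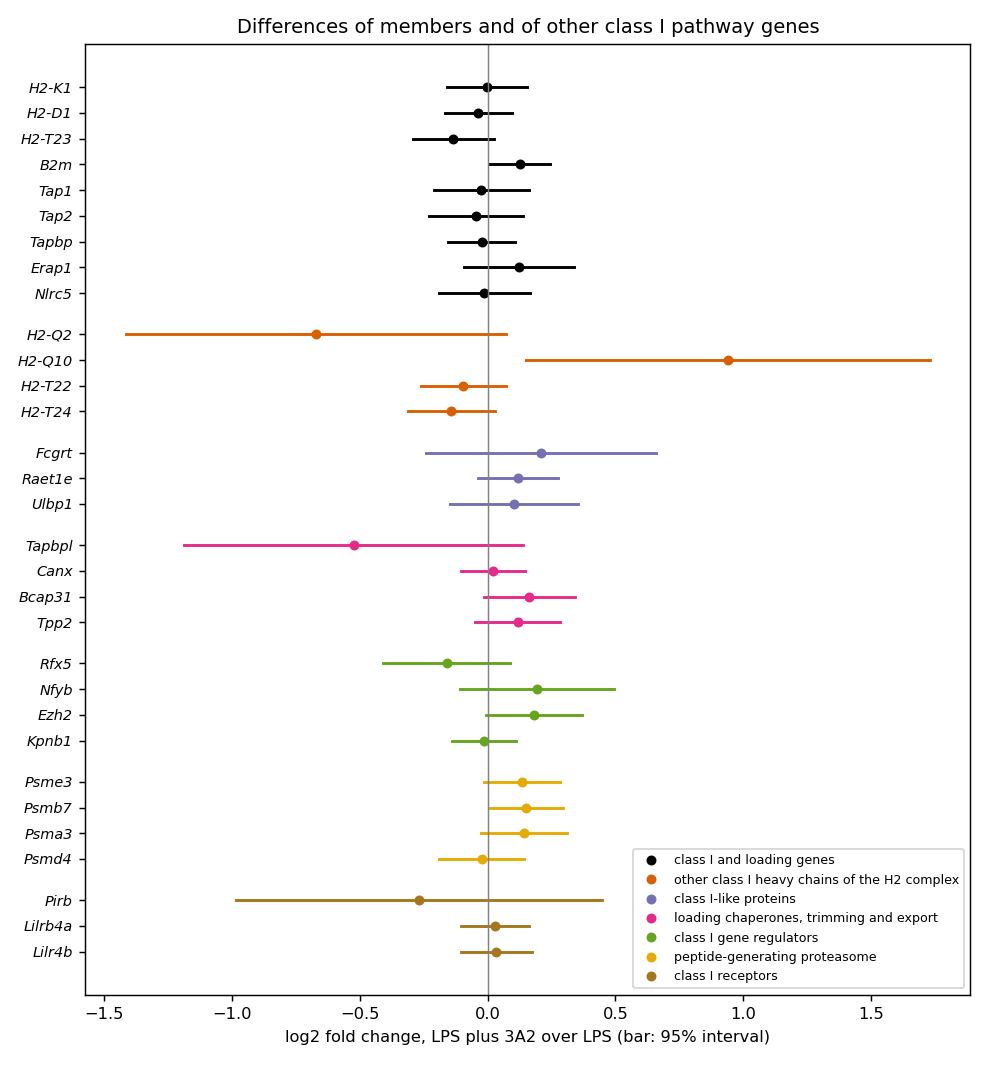
Log2 fold change of LPS plus 3A2 over LPS with its 95% interval for the 9 tested members (black) and for the genes named from the 6 other lists (colours). Intervals that exclude 0 are those of B2m, H2-Q10 and Psmb7, and 0 of these genes passed the adjustment over all genes.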

How the data were processed

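RNA of 6 RAW264.7 cultures was depleted of ribosomal RNA and sequenced strand-specifically in pairs of 150-base reads, per the labels' protocols. The authors deposited raw read counts per gene symbol, 1 column per library. HISAT2, edgeR and GRCh38, a human build, are named in the submitters' processing notes with no role or version, while the symbols are mouse; the sources used here give no counter, annotation or strand setting. Stray cells in 3 unnamed columns were not used, and 0 rows named no gene.

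Members and lists were chosen with earlier results of these data known. Counts were filtered with filterByExpr (11498 of 18179 genes with a count), given TMM factors, and compared by the quasi-likelihood test of edgeR 4.0.16 in R 4.3.3 (robust, two-sided) with Benjamini-Hochberg adjustment over all genes and a threshold of 0.05. P-values measure the spread between cultures of 1 line. Outside the members, the text names per list the 3 tested genes of smallest p and the most abundant; Psmb8, Psmb9, H2-M3 and single marker genes were added after their values were seen. Every pair of libraries differed by more than sampling noise, since the chi-square divided by its degrees of freedom was 3.46 to 23.5. It was 6.67 to 23.5 within the LPS plus 3A2 group, 3.46 to 8.61 within the LPS group and 3.59 to 21.3 between groups. The largest value was between LPS plus 3A2 replicates 2 and 3. Alternatives were other scalings and filters, DESeq2 1.42.0, limma-voom (limma 3.58.1), the replicate number as a block and leaving out each library.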

Additional observations from a re-analysis of the deposited data

How the results depend on the processing

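Of 13 alternatives, 0 called any of the members. Over all genes, edgeR called 16 without a filter on low counts and 1 with the replicate number as a block, and 0 to 25 with 1 library left out, the 25 without LPS plus 3A2 replicate 2 and 1 each without LPS plus 3A2 replicate 3 or LPS replicate 1. The replicate numbers gave no sign of pairs: same-numbered libraries had correlations of -0.029, -0.0232 and -0.267 in their deviations from the group means. With 3 libraries per group these values cannot decide whether cultures were set up in pairs. The block called 0 members. The direction of members near 0 was not stable. H2-K1 lay at 0.00119 on the log2 scale with totals free of mitochondrial and the 20 most abundant genes and at 0.00207 without a filter. With 1 library left out, log2 fold changes ran from -0.0579 to 0.0644 for H2-K1, -0.0748 to 0.00451 for H2-D1, -0.0591 to 0.0107 for Tap1, -0.119 to 0.0209 for Tap2, -0.0632 to 0.000371 for Tapbp and -0.07 to 0.0338 for Nlrc5. They ran from -0.0395 to 0.0123 for Kpnb1, -0.00886 to 0.089 for Lilr4b, -5.6e-05 to 0.188 for Ulbp1, -0.0229 to 0.0488 for Canx, -0.12 to 0.062 for Psmd4 and -0.0173 to 0.0927 for Lilrb4a. Values that moved by over 1.5 times without turning include, without LPS plus 3A2 replicate 3, H2-Q2 at -0.425, H2-T22 at -0.0557 and Raet1e at 0.0391; without LPS plus 3A2 replicate 1, Tapbpl at -0.301 and Fcgrt at 0.0903; and Pirb at -0.109 without LPS replicate 1 and -0.513 without LPS replicate 2. The cause of these shifts was not tested. B2m, H2-T23 and Erap1 kept their direction in all 13. Of 403 values of single genes under alternatives, 386 kept direction and side of the threshold and 17 turned. Depth limits H2-Q7, at 1 count with LPS plus 3A2 and 14 with LPS.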

Other observations

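Class I-like genes and a list of class I receptors and other immune receptors gave 0 calls by edgeR as well. Of 8 tested class I-like genes 6 lay above 0 and 2 below, and their median was 0.046 on the log2 scale. An unadjusted p of 0.05 was passed by 0 of them, where 6.51% of all genes tested passed. Raet1e, a ligand of the activating receptor NKG2D and the most abundant, measured 186, 181 and 215 CPM with LPS plus 3A2, against 167, 185 and 185 CPM with LPS, or 1.085-fold (95% interval 0.974 to 1.21, adjusted p = 0.8055 by edgeR). Ulbp1, another NKG2D ligand, stood at 1.07-fold (0.904 to 1.28), and Fcgrt, the neonatal Fc receptor, which carries antibodies, at 1.16-fold (0.845 to 1.58). Of 5 tested receptor genes 3 lay above 0 and 2 below, and 0 passed an unadjusted p of 0.05, against 6.51% of all genes. The inhibitory receptor gene Lilrb4a measured 1099, 972 and 1136 CPM with LPS plus 3A2, against 1076, 1049 and 1019 CPM with LPS, its relative Lilr4b stood at 1.02-fold (0.93 to 1.13), and Pirb, a receptor of class I on myeloid cells, lay at 2.11 to 2.34 CPM with LPS plus 3A2 and 1.74 to 3.22 CPM with LPS.

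The X2-Y pair also occurs in promoter windows of genes other than the members. Of the 58 genes with the pair, 4 members included, 37 were tested, with 16 above 0, 21 below, a median log2 fold change of -0.0088 and 0 past the threshold by edgeR. At an unadjusted p of 0.05 there were 2 higher, B2m and Hspb6, and 1 lower, Tecpr1. Of all genes tested, 3.43% were higher and 3.09% lower at that level. The gap of the pair was set after the promoters of B2m and of the heavy chain members had been read, so these counts support nothing about the pair.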
